A study of Homo sapiens with 18 samples.

Results

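The response of OCI-Ly1 cells to 500 nM JIB-04 was compared with the response of TMD8 cells to 150 nM JIB-04, gene by gene. OCI-Ly1 and TMD8 are established human cell lines from diffuse large B-cell lymphoma. OCI-Ly1 is commonly used as a germinal-centre B-cell type line and TMD8 as an activated B-cell type line. The comparison used 12 of the 18 samples of the series, 3 in each of 4 groups: OCI-Ly1 with 0.01% DMSO as vehicle, OCI-Ly1 with 500 nM JIB-04, TMD8 with 0.01% DMSO and TMD8 with 150 nM JIB-04. The count tables of both lines were joined on 23686 gene symbols. Of these, 16604 were tested and 14483 had enough counts in each line alone to be measured in both. Calls were made with edgeR's quasi-likelihood test, at an adjusted p under 0.05. Genes called in both lines in 1 direction were taken as shared, and genes called in both lines in different directions as opposite. Line-only genes were called in 1 line, not called in the other, and had a called difference between the responses.

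The medium was IMDM for OCI-Ly1 and an RPMI medium for TMD8, each with 10% serum and antibiotics, so line, medium and dose changed together and cannot be told apart in the difference. No treatment time is given in the labels. The 3 libraries of a group are described as technical replicates, so p-values may measure only the spread between library preparations. In bulk RNA, fewer cells of a kind and less RNA per cell cannot be told apart.

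JIB-04 is a small-molecule inhibitor of the Jumonji-domain (JmjC) histone demethylases, enzymes that need iron and oxygen to take methyl groups off histones, including the heterochromatin mark on histone H3 lysine 9. Cells short of amino acids or under endoplasmic reticulum, haem or mitochondrial stress phosphorylate the initiation factor eIF2. The transcription factor ATF4 is then translated and switches on genes of amino-acid synthesis and stress signalling, a programme called the integrated stress response. B-cell lymphoma lines of the activated type depend on NF-kB signalling and carry high IRF4, a plasma-cell transcription factor.

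The 6 OCI-Ly1 libraries held 17579732 to 32651115 estimated counts and the 6 TMD8 libraries 13706043 to 20509500, and each library had 17185 to 18880 genes above 0. The B-cell markers CD79A, CD79B, MS4A1, PAX5 and CD22 were detected in every group. In CPM (normalised read counts scaled to library size), the DMSO mean of CD79A was 187 in OCI-Ly1 against 395 in TMD8. That of MS4A1 was 470 against 1547. CD79B, the partner of CD79A, was lower in TMD8, at 360 against 190. The summed level of 7 activated-type markers was 510 to 524 CPM in OCI-Ly1 DMSO and 732 to 769 CPM at 500 nM. In TMD8 the sum was 4950 to 5380 CPM with DMSO and 3894 to 4370 CPM at 150 nM. IRF4 was the largest member in each group, with means of 222, 424, 2864 and 2302 CPM in that order. ENTPD1 went against the sum in OCI-Ly1, from 101 to 75.5 CPM. FOXP1 (305 to 329 CPM) and TNFRSF13B (81.7 to 101 CPM) went against it in TMD8. The summed level of 6 germinal-centre markers was 691 to 706 and 581 to 606 CPM in OCI-Ly1, and 165 to 167 and 151 to 160 CPM in TMD8. The fall in OCI-Ly1 lay in MME (359 to 251 CPM) and MYBL1 (57.6 to 40.9 CPM), while BCL6 rose from 207 to 223 CPM. Within that germinal-centre list, LMO2 and SERPINA9 went against the lines' usual types: their means in DMSO were 0.013 and 0.13 CPM in OCI-Ly1, and 57.7 and 23.6 CPM in TMD8. The 4 T-cell markers summed to 18.2 to 21.6 CPM in OCI-Ly1 DMSO and 8.07 to 9.06 CPM at 500 nM, while in TMD8 their sum was at most 2.62 CPM and CD3E was at 0. The 3 fibroblast markers summed to at most 0.856 CPM in OCI-Ly1, and to 3.82 to 4.39 CPM in TMD8 DMSO and 12.1 to 16.5 CPM at 150 nM, most of it COL1A1. The 3 epithelial markers summed to 21.3 to 25.2 and 16.3 to 17.4 CPM in OCI-Ly1 and to 80.9 to 85.9 and 77.0 to 79.0 CPM in TMD8, most of it CDH1 in TMD8. The 3 monocyte markers summed to at most 3.77 CPM in any library. The part of these marker genes in the results was not tested.

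The dose pair is described as the pair of more similar response size, and the counts went against that wording in part. With OCI-Ly1 at 500 nM, 9000 of 16604 genes (54.2%) were called, 4680 higher and 4320 lower, with 1620 of them past a log2 change of 1. TMD8 at 150 nM gave 6175 called genes (37.2%), 2631 higher and 3544 lower, with 606 past a log2 change of 1. TMD8 at 500 nM gave 9012 called genes, 1726 of them past 1, and OCI-Ly1 at 150 nM gave 209, with 48 past 1. The 90th percentile of the absolute log2 change was 0.893 in OCI-Ly1 at 500 nM, 0.590 in TMD8 at 150 nM, 0.933 in TMD8 at 500 nM and 0.321 in OCI-Ly1 at 150 nM. OCI-Ly1 at 500 nM was therefore nearer in size to TMD8 at 500 nM than to TMD8 at 150 nM by each of these measures.

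**Figure D1:**
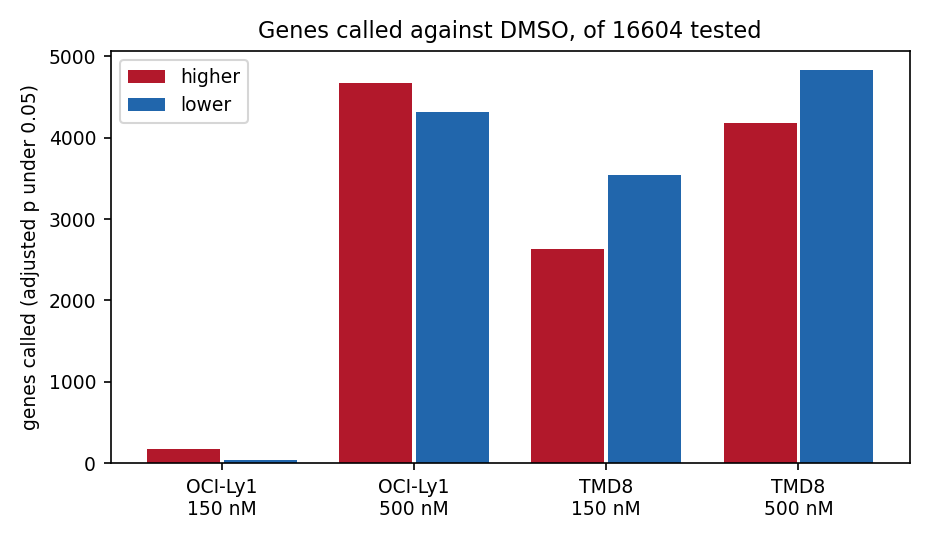
Number of genes called against DMSO (adjusted p under 0.05, y axis from 0) for each line and dose, split into higher (red) and lower (blue); no error applies to these counts. OCI-Ly1 at 500 nM (4680 higher, 4320 lower) and TMD8 at 500 nM (4183 higher, 4829 lower) are close in total, TMD8 at 150 nM is smaller, and OCI-Ly1 at 150 nM has 209 calls in all.

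Across the 14483 genes measured in both lines the log2 changes correlated with Pearson's r of 0.362 and Spearman's rho of 0.278, as a description over genes, which are not independent replicates. The difference between the responses, OCI-Ly1 minus TMD8, was called for 5956 of the 16604 tested genes (35.9%), with 3537 higher in OCI-Ly1 and 2419 lower, and 1300 past a log2 difference of 1. Among genes measured in both lines, 5727 of 14483 (39.5%) had a called difference. Of called differences 59.4% were higher in OCI-Ly1. That share depended on the scale: it was 60.4% with library sizes alone, 86.3% on log2(TPM + 1), where the median difference over all genes moved from 0.03 to 0.27, and 38% on the same scale with each library centred on its median. The share of calls that rose was 52.0% in OCI-Ly1 and 42.6% in TMD8, against 71.3% and 19.3% on log2(TPM + 1), 29.2% and 31.3% after centring, and 64.3% and 60.5% with library sizes alone. The signs of small differences therefore depend on the scale.

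Of the genes measured in both lines, 3054 (21.1%) were shared, 1360 rising (9.39%) and 1694 falling (11.7%). These were 36.7% of the 8331 genes called in OCI-Ly1 and 52.3% of the 5837 called in TMD8. Of the shared rises, 902 had no called difference in size, 380 rose more in OCI-Ly1 and 78 rose more in TMD8. Of the shared falls, 1316 had no called difference, 252 fell more in OCI-Ly1 and 126 fell more in TMD8. Opposite genes numbered 792 (5.47%), with 510 (3.52%) rising and 282 (1.95%) falling in OCI-Ly1. OCI-Ly1-only genes were 1507 rising (10.4%) and 1231 falling (8.50%), and TMD8-only genes 367 rising (2.53%) and 786 falling (5.43%). A further 1747 genes (12.1%) were called in OCI-Ly1 alone and 838 (5.79%) in TMD8 alone without a called difference, so no line preference was shown for them. With a log2 change of at least 0.5 also required, the split of the opposite genes turned, with 22 of 87 rising in OCI-Ly1, and 73.9% of 746 shared genes rose. Without TMD8 150 nM replicate 3 there were 488 opposite and 723 TMD8-only genes. The genes called largest in their class below are the largest of a selection. Their mean reached 5 CPM in 1 of the 4 groups and their count exceeded 3 in all 12 libraries. DMSO and treated libraries also had to show no overlap for each called response. Such lack of overlap was common, at 58.2% of tested genes in OCI-Ly1 and 48.4% in TMD8. It held in both responses for 34.1% of the genes measured in both lines.

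**Figure D2:**
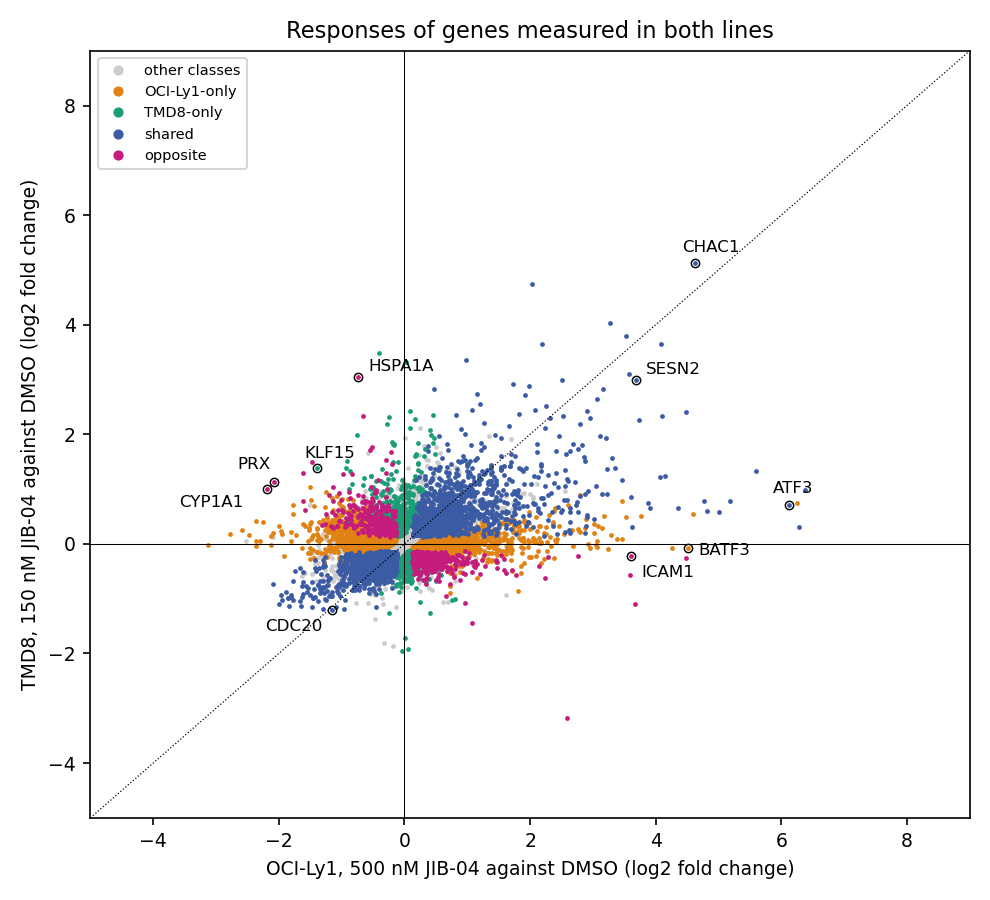
Each point is a gene measured in both lines, with its log2 fold change in OCI-Ly1 (500 nM against DMSO, x axis) and in TMD8 (150 nM against DMSO, y axis), coloured by class; the dotted line marks equal changes and 63 genes with a group at 3 counts or fewer in every library are not drawn. Shared rises such as CHAC1 and SESN2 lie near the dotted line, BATF3 lies far to the right near 0 in TMD8 and ATF3 far to the right at 0.71, and CYP1A1, PRX and HSPA1A lie in the quadrant of falls in OCI-Ly1 with rises in TMD8.

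Of the 5 genes with the largest shared rises, CHAC1, SLC6A9, SESN2 and CTH belong to the integrated stress response list or handle amino acids. CHAC1, which breaks down glutathione, was at 4.95, 3.94 and 3.48 CPM in OCI-Ly1 DMSO and at 108, 103 and 94.2 CPM at 500 nM. In TMD8, CHAC1 was at 0.47, 0.351 and 0.681 CPM with DMSO and at 16.1, 16.9 and 20.5 CPM at 150 nM. Every treated library was above every DMSO library in both lines, while the OCI-Ly1 level was higher throughout. The log2 change of CHAC1 was 4.62 ± 0.10 (SE; adjusted p = 1.96e-22) in OCI-Ly1 and 5.13 ± 0.19 (adjusted p = 2.54e-16) in TMD8. Their difference of -0.51 had a 95% interval of -1.13 to 0.10 (adjusted p = 0.189), but on log2(TPM + 1), where a low level is pulled towards 0, it was 1.66 (adjusted p = 3.2e-07). SESN2, a leucine sensor that restrains the growth kinase mTORC1, rose from 16.7, 15.4 and 14.4 CPM to 211, 202 and 183 CPM in OCI-Ly1. In TMD8 SESN2 rose from 2.41, 3.16 and 2.94 CPM to 19.5, 23.0 and 25.1 CPM, with no overlap in either line. The log2 changes of 3.68 ± 0.08 and 2.99 ± 0.13 differed by 0.69 ± 0.18 (adjusted p = 0.00318). SLC6A9, a glycine transporter, rose by 4.09 ± 0.16 and 3.65 ± 0.24 on the log2 scale. CTH, which makes cysteine from cystathionine, rose by 3.07 ± 0.08 and 2.64 ± 0.14. TSC22D3, a glucocorticoid-induced leucine zipper gene, rose by 3.16 ± 0.13 and 2.83 ± 0.20. For these last 3 genes the difference was not called (adjusted p = 0.362, 0.0596 and 0.353), with 95% intervals of -0.30 to 1.19, 0.07 to 0.80 and -0.22 to 0.87.

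Over the integrated stress response list, 32 members were measured in both lines. All 32 rose in OCI-Ly1 against 28.2% of all tested genes, and 28 rose in TMD8 against 15.8%. The difference was called for 25, with 23 higher in OCI-Ly1 (background 21.3%) and 2 lower (background 14.6%). On log2(TPM + 1) all 32 still rose in OCI-Ly1, but 21 rose in TMD8. The difference was then higher in OCI-Ly1 for 29 and lower for 1, and its median of 0.63 became 1.35. The median log2 change was 1.64 in OCI-Ly1 and 0.89 in TMD8, against -0.01 and -0.00 over the 14483 genes measured in both lines. Of those 14483 genes, 4240 rose in OCI-Ly1 and 2364 in TMD8. Among transcription factors of the list, ATF3 showed the largest difference. ATF3 was at 0.383, 0.169 and 0.542 CPM in OCI-Ly1 DMSO, where 1 library held 3 counts, and at 32.8, 25.2 and 24.1 CPM at 500 nM. In TMD8, ATF3 was already at 49.4, 48 and 47.7 CPM with DMSO and was at 78.3, 79.3 and 79.2 CPM at 150 nM. The treated OCI-Ly1 libraries thus stayed below the untreated TMD8 libraries, while the log2 changes were 6.13 ± 0.18 and 0.71 ± 0.08 and differed by 5.42 ± 0.22 (adjusted p = 4.31e-16). PPP1R15A, which recruits the phosphatase that reverses eIF2 phosphorylation, went from 9.55, 9.86 and 9.45 CPM to 94.4, 89.4 and 85.2 CPM in OCI-Ly1. In TMD8, PPP1R15A went from 145, 144 and 148 CPM to 244, 263 and 308 CPM, giving log2 changes of 3.22 and 0.90 that differed by 2.32 ± 0.10 (adjusted p = 1.96e-15). PCK2, a mitochondrial enzyme that makes phosphoenolpyruvate, rose by 2.62 ± 0.08 in OCI-Ly1 and by 0.26 ± 0.09 in TMD8, and the TMD8 call was lost in 7 of 23 alternatives. GDF15, a stress hormone, was at 3 counts or fewer in all DMSO libraries, so no fold is given. Its counts were 70, 46 and 68 in OCI-Ly1 at 500 nM and 59, 67 and 157 in TMD8 at 150 nM.

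All 10 amino-acid synthesis enzymes of the list rose in OCI-Ly1, and 7 of them rose in TMD8 too. Of all tested genes, 28.2% rose in OCI-Ly1 and 15.8% in TMD8. Named here after their values were seen, the mitochondrial one-carbon enzymes MTHFD2 and SHMT2 belonged to the OCI-Ly1-only rises. MTHFD2 was at 263, 272 and 263 CPM in OCI-Ly1 DMSO and at 670, 618 and 626 CPM at 500 nM. In TMD8 MTHFD2 was at 351, 314 and 310 CPM with DMSO and at 339, 325 and 304 CPM at 150 nM, so that the groups overlapped. The log2 changes were 1.26 and -0.01, a difference of 1.27 (adjusted p = 2.32e-12). SHMT2, which passes a carbon unit from serine to folate, changed by 0.84 in OCI-Ly1 and by 0.01 in TMD8. PHGDH, the first enzyme of serine synthesis, rose by 1.37 and 1.44, with no called difference (adjusted p = 0.639). ALDH1L2, another mitochondrial folate enzyme, rose by 1.08 in OCI-Ly1 and by 2.45 in TMD8. It was 1 of the 2 members of the list whose difference was called and lower in OCI-Ly1. The other was ATF4 itself, with log2 changes of 0.65 and 0.89 (adjusted p of the difference 0.011). All 8 amino-acid transporters rose in both lines, and for 7 of them the difference was called and higher in OCI-Ly1. The difference was higher in OCI-Ly1 for 21.3% of all tested genes.

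**Figure D3:**
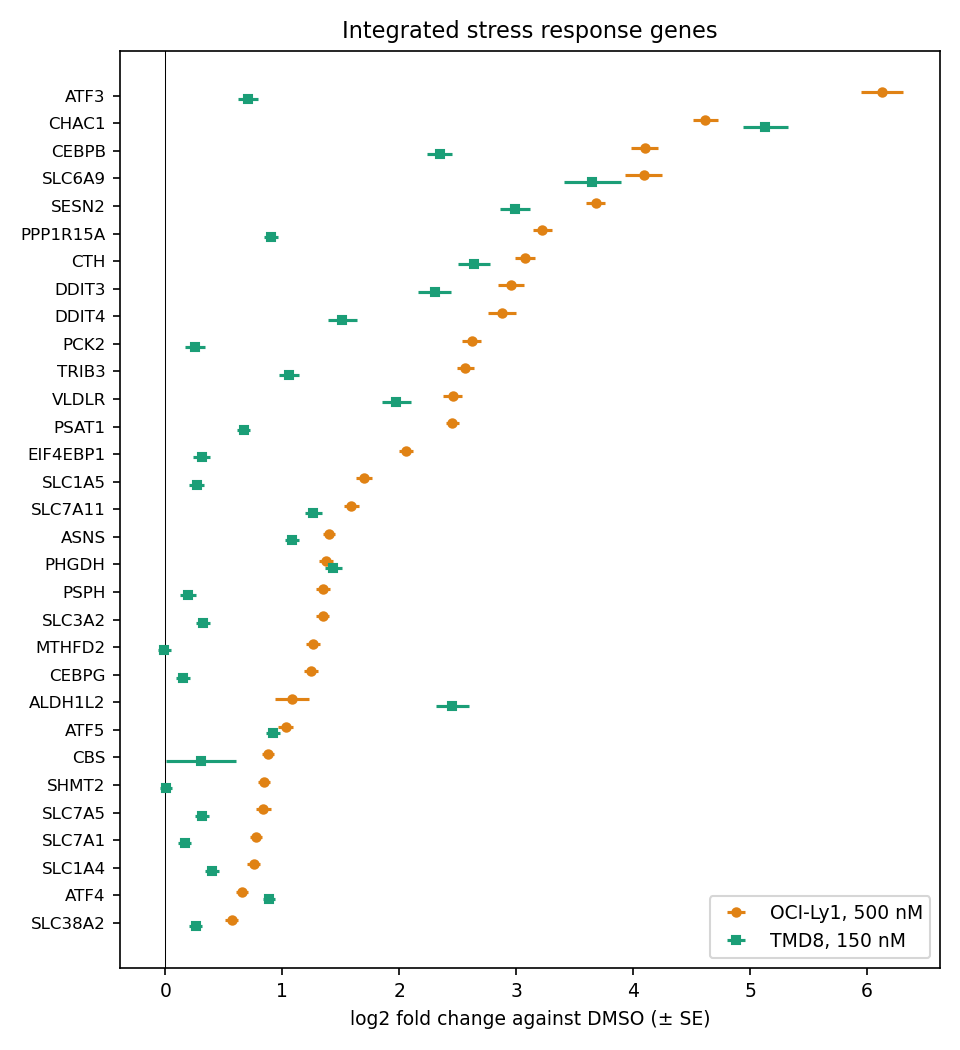
Log2 fold change against DMSO (x axis, points with SE bars) of 31 integrated stress response genes measured in both lines, in OCI-Ly1 at 500 nM (orange circles) and TMD8 at 150 nM (green squares); GDF15 is left out because its DMSO libraries held 3 counts or fewer. CHAC1 and PHGDH sit close in both lines, ATF3, PPP1R15A and PCK2 sit far to the right only in OCI-Ly1, and ALDH1L2 sits further right in TMD8.

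CHAC1 and ATF3 were the 2 of 8 named genes of the list whose 250 bases before the start (RefSeq, GRCh38.p14) held the letters TGATGNAA on either strand, the core of the amino-acid response element that ATF4 binds. The letters occurred in 3.14% of the 35116 promoters of the table. They are shown because CHAC1 had no called difference between the lines and ATF3 had the largest difference of the list. Capitals mark the match, and a match is a description of the letters only. CHAC1 lies at chr15:40953221-40953470 on the plus strand, with the match 209 bases before the start, and ATF3 at chr1:212565157-212565406 on the plus strand, with the match 191 bases before it.
CHAC1: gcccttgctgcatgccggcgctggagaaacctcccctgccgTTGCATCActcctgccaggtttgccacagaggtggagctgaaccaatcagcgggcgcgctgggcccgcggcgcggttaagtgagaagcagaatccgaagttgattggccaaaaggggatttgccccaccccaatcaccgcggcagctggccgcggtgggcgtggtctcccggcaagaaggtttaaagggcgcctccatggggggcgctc
ATF3: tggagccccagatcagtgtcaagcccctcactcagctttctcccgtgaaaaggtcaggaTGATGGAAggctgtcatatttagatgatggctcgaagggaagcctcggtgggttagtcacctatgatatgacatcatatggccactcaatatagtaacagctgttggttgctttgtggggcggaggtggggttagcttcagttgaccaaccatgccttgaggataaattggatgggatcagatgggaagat

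Aminoacyl-tRNA synthetases, which load amino acids onto tRNA, had 20 members measured in both lines. In OCI-Ly1 11 rose and 7 fell (28.2% and 26.0% of all tested genes), while in TMD8 5 rose and 9 fell (15.8% and 21.3%). The difference was higher in OCI-Ly1 for 12 and lower for 2 (21.3% and 14.6%), and medians were 0.45 and -0.12. WARS, the tryptophan enzyme, was at 72.8, 68.3 and 73.4 CPM in OCI-Ly1 DMSO and at 353, 335 and 312 CPM at 500 nM. In TMD8 WARS was at 130, 115 and 112 CPM with DMSO and at 190, 201 and 196 CPM at 150 nM. WARS rose without overlap in both lines, by 2.22 and 0.72 on the log2 scale, with a difference of 1.5 ± 0.08 (adjusted p = 1.81e-13). TARS and CARS, the threonine and cysteine enzymes, rose by 1.27 and 1.36 in OCI-Ly1, and their TMD8 changes of -0.00 and 0.12 were not called. FARSB, a phenylalanine enzyme subunit, fell by 0.56 and 0.53 with no called difference (adjusted p = 0.831).

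Of 8 metal-responsive genes measured in both lines, 6 rose and 1 fell in each line, against 28.2% and 26.0% of all tested genes in OCI-Ly1 and 15.8% and 21.3% in TMD8. The TMD8 rises numbered 3 of 8 on log2(TPM + 1) and 4 of 8 without TMD8 150 nM replicate 3. Metallothioneins are small zinc- and copper-binding proteins, and SLC30A1 exports zinc from the cell. All 5 metallothioneins measured in both lines rose in both, and the difference was higher in OCI-Ly1 for all 5 (background 21.3%), though MT1E and MT1G were at 3 counts or fewer in the OCI-Ly1 DMSO libraries. The median difference over the 8 members measured in both lines was 2.40 as fitted and 1.18 with those 2 genes at their lower bound. MT2A was at 1.96, 1.69 and 0.619 CPM in OCI-Ly1 DMSO and at 12.3, 11.7 and 14.8 CPM at 500 nM. In TMD8 MT2A was at 7.58, 8.42 and 8.07 CPM with DMSO and at 24.2, 28.1 and 38.8 CPM at 150 nM. Both lines rose without overlap, by 3.21 ± 0.22 and 1.93 ± 0.17, a difference of 1.27 ± 0.30 (adjusted p = 0.00179). MT1X rose from 1.99, 1.80 and 2.13 CPM to 15.1, 10.2 and 11.9 CPM in OCI-Ly1. In TMD8 MT1X went from 11.6, 10.6 and 8.33 CPM to 12.3, 14.1 and 13.8 CPM, and that call was lost in 6 of 23 alternatives. SLC30A1 rose by 2.89 ± 0.13 in OCI-Ly1 and 0.32 ± 0.10 in TMD8, a difference of 2.56 ± 0.16 (adjusted p = 2.73e-12). SLC39A10, a zinc importer, fell by 0.71 and 0.60, with no called difference. Metallothionein genes are near-identical, and how the counting split reads between them is not given in the sources used here.

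The promoters of both metallothioneins are shown because they rose in both lines by unequal amounts. Capitals mark TGCNCNC on either strand, the core of the metal response element, which 3 of the 4 named metal-responsive genes found in the table held, as did 49.1% of all promoters. MT1X lies at chr16:56682220-56682469 with 4 matches and MT2A at chr16:56608334-56608583 with 7, both on the plus strand.
MT1X: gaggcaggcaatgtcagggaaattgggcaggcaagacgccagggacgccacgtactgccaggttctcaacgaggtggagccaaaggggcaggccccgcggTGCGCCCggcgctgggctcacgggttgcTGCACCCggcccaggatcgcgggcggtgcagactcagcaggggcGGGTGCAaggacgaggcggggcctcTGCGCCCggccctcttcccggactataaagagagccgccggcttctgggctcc
MT2A: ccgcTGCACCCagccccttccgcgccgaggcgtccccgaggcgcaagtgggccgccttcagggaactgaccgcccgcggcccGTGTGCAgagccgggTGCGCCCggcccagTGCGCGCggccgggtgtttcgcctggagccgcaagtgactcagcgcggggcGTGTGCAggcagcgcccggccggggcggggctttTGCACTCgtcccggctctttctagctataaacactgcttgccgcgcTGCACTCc

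Mitotic genes and replication-dependent histone genes made up the largest shared falls. CDC20, which activates the ubiquitin ligase that ends metaphase, was at 176, 161 and 162 CPM in OCI-Ly1 DMSO and at 69.7, 76.2 and 77.4 CPM at 500 nM. In TMD8 CDC20 was at 159, 138 and 144 CPM with DMSO and at 75.0, 63.4 and 53.4 CPM at 150 nM. The falls did not overlap with DMSO in either line and were close in size, with log2 changes of -1.16 ± 0.08 and -1.21 ± 0.09 and a difference of 0.05 (95% interval -0.19 to 0.29, adjusted p = 0.794). PLK1, a mitotic kinase, fell by 1.47 and 1.15, and the called difference of -0.32 (adjusted p = 0.0327) was lost in 10 of 23 alternatives. Of 38 mitotic genes, 32 fell in OCI-Ly1 (background 26.0%) and all 38 fell in TMD8 (background 21.3%), with medians of -0.52 and -0.70. Their difference was higher in OCI-Ly1 for 10 and lower for 4 (21.3% and 14.6% of all tested genes). This became 19 and none on log2(TPM + 1), and 4 and 5 on the centred scale. KIF2C, a microtubule-depolymerising kinesin, was called in TMD8 alone, at -0.49 against -0.11 (adjusted p of the difference 0.000283).

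Replication-dependent histone genes are switched on in S phase. HIST1H2BM was at 524, 486 and 518 CPM in OCI-Ly1 DMSO and at 132, 130 and 121 CPM at 500 nM. In TMD8 HIST1H2BM was at 232, 217 and 202 CPM with DMSO and at 114, 93.2 and 99 CPM at 150 nM. Both falls were without overlap, -2.00 ± 0.07 and -1.09 ± 0.07 on the log2 scale, and differed by -0.91 ± 0.10 (adjusted p = 4.38e-08). HIST1H2AJ and HIST1H2BL fell by 1.65 and 1.84 in OCI-Ly1 and by 1.14 and 1.13 in TMD8. Of 61 histone genes measured in both lines, 58 fell in OCI-Ly1 and 57 in TMD8 (26.0% and 21.3% of all tested genes). The difference was called and lower in OCI-Ly1 for 49 of the 61 (background 14.6%). On log2(TPM + 1) that last count was 23 of 61, and the median difference of -0.55 was -0.26. HIST4H4 fell from 229, 222 and 207 CPM to 67.0, 60.9 and 60.4 CPM in OCI-Ly1 and was at 29.9, 36.5 and 35.3 CPM and 35.9, 35.9 and 34.1 CPM in TMD8, where the groups overlapped. Histone genes are near-identical within families, so reads may have been split between copies.

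Most genes of the DNA replication machinery fell in TMD8. Of 43 members, 31 fell and 1 rose in TMD8, against 21.3% and 15.8% of all tested genes. In OCI-Ly1 12 rose and 10 fell, which is near the shares of all tested genes (28.2% and 26.0%). The OCI-Ly1 counts were 23 rising and 6 falling with library sizes alone, and 4 rising and 16 falling on centred log2(TPM + 1). The difference was higher in OCI-Ly1 for 26 and lower for none, against a background of 21.3% and 14.6% of all tested genes. Of the 43 members, 7 were opposite, all rising in OCI-Ly1, against 3.52% of all genes measured in both lines for that direction. CDC45, a part of the replicative helicase, was at 110, 103 and 104 CPM in OCI-Ly1 DMSO and at 138, 141 and 142 CPM at 500 nM. In TMD8 CDC45 was at 70.3, 62.3 and 66.8 CPM with DMSO and at 50.3, 54.5 and 50.9 CPM at 150 nM. Neither line's groups overlapped, and the log2 changes of 0.42 and -0.36 differed by 0.77 ± 0.08 (adjusted p = 3.31e-08). MCM10 and GINS2, which also act at the replication fork, changed by 0.28 and 0.18 in OCI-Ly1 and by -0.40 each in TMD8. The median of the list in OCI-Ly1 was 0.06 and turned to -0.04 on centred log2(TPM + 1), whereas the median difference of 0.26 lay between 0.22 and 0.55 under every scaling tried. RFC3 and RRM1, a clamp loader subunit and a ribonucleotide reductase subunit, fell in both lines, RRM1 by 0.39 and 0.38.

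Most p53 target genes rose in each line. Of 26 members, 20 rose and 5 fell in OCI-Ly1 and 24 rose in TMD8 with none falling, against 28.2% and 26.0% of all tested genes in OCI-Ly1 and 15.8% and 21.3% in TMD8. The difference was lower in OCI-Ly1 for 12 and higher for 3 (14.6% and 21.3%). On log2(TPM + 1) it was lower for 7 and higher for 9, and the median difference of -0.31 became 0.06. CDKN1A, the inhibitor of cyclin-dependent kinases p21, was at 17, 15.5 and 16.7 CPM in OCI-Ly1 DMSO and at 139, 135 and 134 CPM at 500 nM. In TMD8 CDKN1A was at 76.8, 81.3 and 86.1 CPM with DMSO and at 154, 178 and 178 CPM at 150 nM. It rose without overlap in both, by 3.05 and 1.06, with a difference of 1.98 ± 0.09 (adjusted p = 6.74e-15). GADD45A, a growth-arrest gene, was at 40.1, 49.2 and 51.9 CPM and at 55.2, 52.0 and 52.1 CPM in OCI-Ly1. In TMD8 GADD45A rose from 3.69, 3.51 and 2.88 CPM to 13.0, 16.8 and 18.2 CPM. The treated libraries were above the DMSO libraries in both lines, but the OCI-Ly1 change was small and not called. The log2 changes of 0.18 (adjusted p = 0.0817) and 2.27 (adjusted p = 4.25e-12) differed by -2.10 ± 0.17. PHLDA3 and the death receptor FAS rose in both, PHLDA3 by 2.51 and 2.99 and FAS by 2.77 and 1.73. TP53I3, an oxidoreductase, changed by -0.66 in OCI-Ly1 and 0.87 in TMD8, and was 1 of 5 opposite members, all of which fell in OCI-Ly1. The others, named after their values were seen, were BTG2, XPC, RRM2B and POLH. Of all genes measured in both lines, 1.95% were opposite with a fall in OCI-Ly1.

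The largest rises called in OCI-Ly1 only were those of BATF3, SERPINH1, TBC1D16 and SLC43A1. BATF3, an AP-1 family transcription factor, was at 0.345, 0.451 and 0.581 CPM in OCI-Ly1 DMSO and at 11.1, 10.9 and 9.76 CPM at 500 nM. In TMD8 BATF3 was at 15.8, 12.9 and 11.9 CPM with DMSO and at 13.3, 11.8 and 13.0 CPM at 150 nM. The OCI-Ly1 rise of 4.51 ± 0.19 (adjusted p = 5.9e-17) had no counterpart past the threshold in TMD8 (-0.08 ± 0.12, adjusted p = 0.637), and the difference was 4.59 ± 0.23 (adjusted p = 2.9e-14). SERPINH1, a collagen chaperone, rose from 0.575, 0.563 and 0.658 CPM to 5.24, 5.20 and 4.88 CPM in OCI-Ly1 and stayed between 27.6 and 31.5 CPM in all 6 TMD8 libraries. SLC43A1, a carrier of large neutral amino acids, rose from 12.2, 14.9 and 12.3 CPM to 111, 113 and 102 CPM in OCI-Ly1, above its TMD8 range of 41.7 to 46.5 CPM. TBC1D16, a regulator of the vesicle GTPase cycle, rose by 3.29 ± 0.22 in OCI-Ly1, with 0.16 ± 0.20 in TMD8. FYN, a kinase of the SRC family, went from 3.37, 3.72 and 4.3 CPM to 35.1, 35.1 and 30.7 CPM in OCI-Ly1, and from 7.58, 8.36 and 6.29 CPM to 10.2, 7.98 and 9.08 CPM in TMD8, a difference of 2.84 ± 0.17 (adjusted p = 1.11e-12).

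The largest falls called in OCI-Ly1 only were those of TBC1D3, FCRL2, RPS6KA6 and PNMAL1. FCRL2, an Fc receptor-like protein of B cells, fell from 33.4, 33.6 and 33.3 CPM to 6.18, 6.43 and 6.97 CPM in OCI-Ly1. In TMD8 FCRL2 was at 146, 132 and 135 CPM with DMSO and at 151, 145 and 131 CPM at 150 nM, and the groups overlapped. The log2 changes of -2.36 ± 0.08 and 0.05 ± 0.06 differed by -2.40 ± 0.10 (adjusted p = 4.63e-16). PNMAL1 fell by 2.12 ± 0.19 in OCI-Ly1, with 0.15 ± 0.23 in TMD8. RPS6KA6, a ribosomal S6 kinase, was at 3.37, 21.6 and 3.79 CPM in OCI-Ly1 DMSO and at 1.72, 1.37 and 3.30 CPM at 500 nM, so that 1 DMSO library stood far above the others. Without that library, OCI-Ly1 DMSO replicate 2, the log2 change of RPS6KA6 was -0.74 (adjusted p = 0.0133) in place of -2.09. TBC1D3 was at 8.78, 6.93 and 4.45 CPM and at 3.46, 0.149 and 2.03 CPM, and it belongs to a family of near-identical copies between which reads may have been split.

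**Figure D4:**
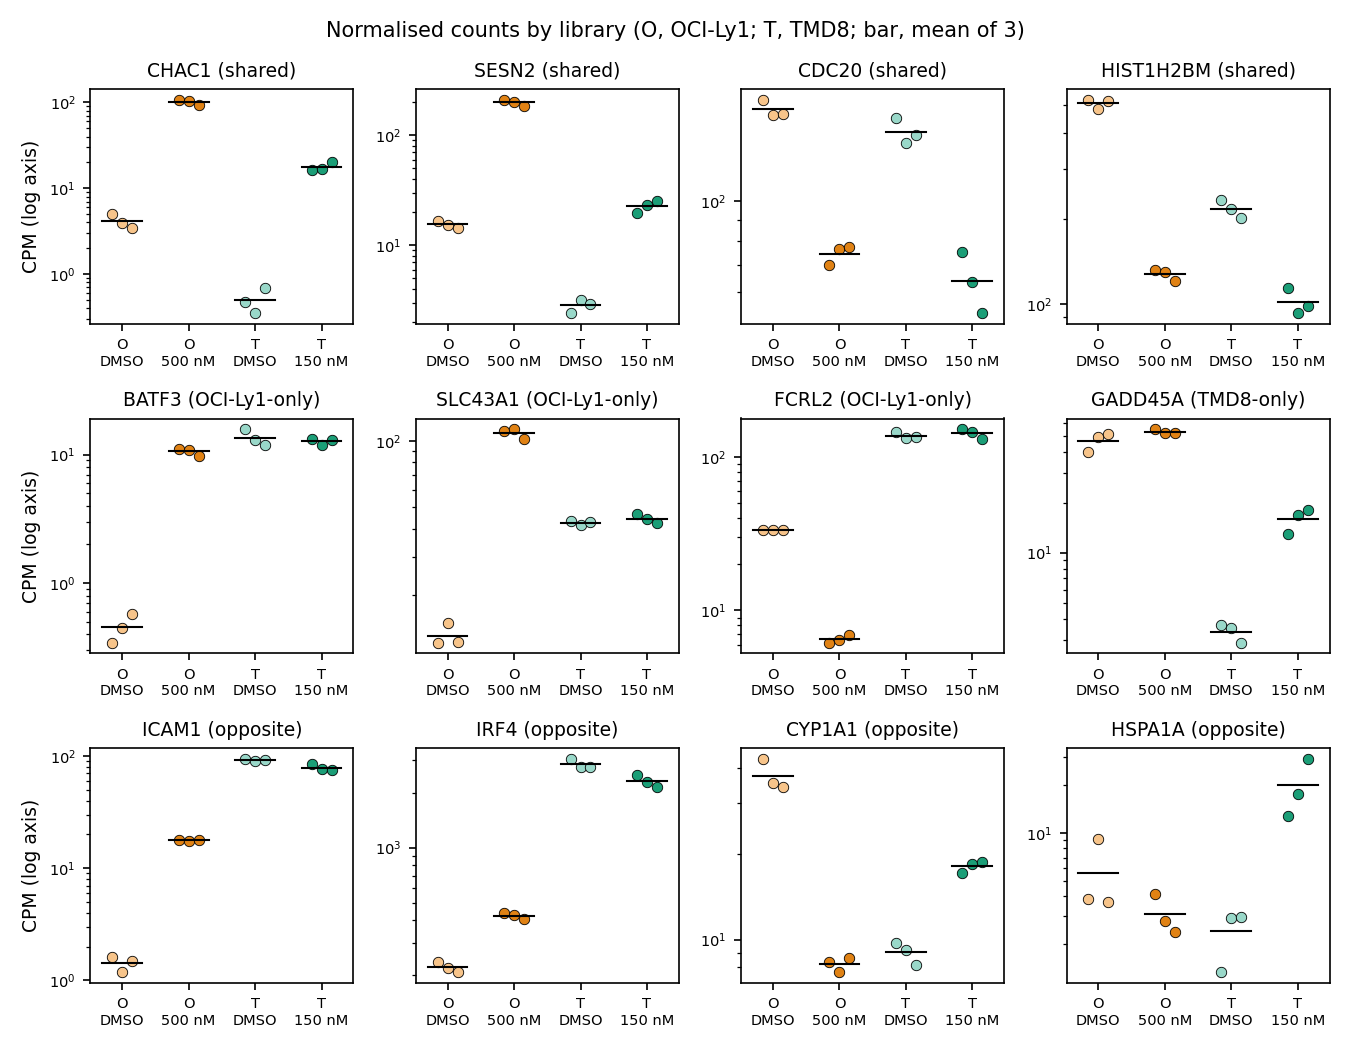
Normalised counts (CPM, log axis) of 12 genes in each library of the 4 groups; O is OCI-Ly1, T is TMD8, points are libraries and bars are means of 3. The shared genes move in 1 direction in both lines, BATF3, SLC43A1 and FCRL2 move in OCI-Ly1 with overlapping TMD8 groups, GADD45A is called in TMD8 only, and ICAM1, IRF4 and CYP1A1 move in opposite directions without overlap, whereas the OCI-Ly1 groups of HSPA1A overlap.

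Rises called in TMD8 only included PGF, a placental growth factor of the VEGF family, and AQP3, a water and glycerol channel. PGF was at 1.34, 1.99 and 1.73 CPM in TMD8 DMSO and at 7.23, 8.42 and 11.3 CPM at 150 nM. In OCI-Ly1 PGF was between 0.426 and 1.13 CPM in all 6 libraries. The difference of the log2 changes, 0.09 and 2.42, was -2.32 ± 0.37 (adjusted p = 2.58e-05). AQP3 rose from 0.402, 0.526 and 0.577 CPM to 1.83, 2.61 and 2.21 CPM in TMD8 and lay between 9.33 and 11.1 CPM in OCI-Ly1. KLF15, a glucocorticoid-responsive zinc-finger factor, rose from 8.25, 19.2 and 29.6 CPM to 32.7, 54.9 and 62.5 CPM in TMD8. In OCI-Ly1 KLF15 was at 0.613, 7.27 and 0.348 CPM with DMSO and at 0.515, 0.743 and 1.36 CPM at 500 nM, and without OCI-Ly1 DMSO replicate 2 its difference of -2.78 (adjusted p = 0.0111) became -0.52 (adjusted p = 0.711). BCL2, the survival gene targeted by venetoclax, rose from 230, 235 and 231 CPM to 343, 362 and 365 CPM in TMD8 and lay between 541 and 569 CPM in OCI-Ly1, a difference of -0.61 ± 0.07 (adjusted p = 5.43e-08).

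Falls called in TMD8 only included RASGEF1A, a RAS exchange factor, and SCLY, which frees selenium from selenocysteine. RASGEF1A was at 27.2, 24.4 and 26.5 CPM in TMD8 DMSO and at 15.2, 12.9 and 10.3 CPM at 150 nM, while no OCI-Ly1 library was above 1.20 CPM. The log2 change in TMD8 was -1.03 ± 0.16 (adjusted p = 1.15e-05). SCLY fell from 33.9, 30.4 and 28.2 CPM to 16.2, 11.8 and 16.0 CPM in TMD8 and changed by 0.25 in OCI-Ly1 (adjusted p = 0.0646), a difference of 1.31 ± 0.16 (adjusted p = 6.14e-07). The 2 largest differences of this class, SMN1 (1.96) and the read-through transcript C7orf55-LUC7L2 (1.92), share sequence with a near-identical copy or with the neighbouring genes and are uncertain for that reason.

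The opposite genes that rose in OCI-Ly1 and fell in TMD8 included the NF-kB targets ICAM1 and NFKBIA and the B-cell gene IRF4. ICAM1, an adhesion molecule, was at 1.61, 1.18 and 1.47 CPM in OCI-Ly1 DMSO and at 17.8, 17.6 and 17.7 CPM at 500 nM. In TMD8 ICAM1 was at 94.6, 89.9 and 91.7 CPM with DMSO and at 85.2, 76.4 and 75.2 CPM at 150 nM. The OCI-Ly1 libraries stayed below all TMD8 libraries, and the log2 changes of 3.6 ± 0.11 and -0.22 ± 0.06 differed by 3.83 ± 0.12 (adjusted p = 6.11e-18). NFKBIA, the inhibitor that NF-kB itself induces, went from 57.9, 55.7 and 53.4 CPM to 136, 131 and 129 CPM in OCI-Ly1 and from 164, 146 and 152 CPM to 137, 121 and 120 CPM in TMD8. CXCL10, a chemokine, had 0 counts in all OCI-Ly1 DMSO libraries and 25, 14 and 16 at 500 nM, and fell by 0.69 on the log2 scale in TMD8. LTA and TNF, 2 cytokines of 1 family, rose in both lines, LTA by 1.70 and 1.5. Of 26 NF-kB subunits, inhibitors and targets, 16 rose and 4 fell in OCI-Ly1 and 12 rose and 7 fell in TMD8. Opposite members numbered 6, where 5.47% of all genes measured in both lines were opposite. Over all tested genes, 28.2% rose and 26.0% fell in OCI-Ly1, while 15.8% rose and 21.3% fell in TMD8. The difference was higher in OCI-Ly1 for 10 members and lower for 5 (21.3% and 14.6% of all tested genes). On log2(TPM + 1) the TMD8 balance turned to 5 rising and 9 falling, and the difference to 17 higher and 1 lower.

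IRF4 was at 236, 220 and 208 CPM in OCI-Ly1 DMSO and at 437, 428 and 406 CPM at 500 nM. In TMD8 IRF4 was at 3066, 2768 and 2758 CPM with DMSO and at 2481, 2276 and 2149 CPM at 150 nM. The groups did not overlap in either line, and the log2 changes of 0.93 and -0.32 differed by 1.25 ± 0.08 (adjusted p = 8.31e-12). XBP1, the plasma-cell and unfolded-protein-response factor, rose in both lines, by 1.70 and 0.42. MYC went from 321, 300 and 290 CPM to 384, 392 and 375 CPM in OCI-Ly1 and from 388, 354 and 351 CPM to 254, 232 and 217 CPM in TMD8, a difference of 0.97 ± 0.08 (adjusted p = 4.7e-10). Nucleolar ribosome-assembly factors, many of them MYC targets, fell in both lines: 23 of 28 in OCI-Ly1 and 27 of 28 in TMD8. Over the whole list of 34, which adds the MYC network, the 24 falls in OCI-Ly1 numbered 13 on log2(TPM + 1). The 28 falls in TMD8 numbered 29 on that scale. Of all tested genes, 26.0% fell in OCI-Ly1 and 21.3% in TMD8.

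SREBF1, the regulator of fatty-acid and sterol synthesis, was at 17.3, 18.6 and 16.8 CPM in OCI-Ly1 DMSO and at 25.7, 29.6 and 28.0 CPM at 500 nM. In TMD8 SREBF1 was at 34.1, 36.5 and 34.5 CPM with DMSO and at 19.6, 18.2 and 16.8 CPM at 150 nM. The groups did not overlap in either line, and the TMD8 level, higher with DMSO, was the lower after treatment. The log2 changes were 0.66 and -0.95, a difference of 1.61 ± 0.11 (adjusted p = 2.67e-11). Of 19 cholesterol synthesis enzymes, 13 fell in OCI-Ly1 and 14 in TMD8 (26.0% and 21.3% of all tested genes). Over the whole list of 23, the 15 falls in OCI-Ly1 numbered 7 on log2(TPM + 1). LSS, lanosterol synthase, rose in TMD8 only, by 0.66. PEMT, which makes phosphatidylcholine in the liver and elsewhere, changed by 0.72 and -0.73. DENND3, an exchange factor for RAB GTPases, rose from 1.11, 0.845 and 1.86 CPM to 6.30, 6.13 and 6.21 CPM in OCI-Ly1 and fell from 145, 139 and 141 CPM to 99.7, 91.2 and 87.5 CPM in TMD8.

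CYP1A1, a drug- and hormone-oxidising enzyme induced through the aryl hydrocarbon receptor, was among the opposite genes that fell in OCI-Ly1. CYP1A1 was at 43.0, 35.3 and 34.2 CPM in OCI-Ly1 DMSO and at 8.36, 7.69 and 8.65 CPM at 500 nM. In TMD8 CYP1A1 was at 9.73, 9.18 and 8.18 CPM with DMSO and at 17.1, 18.4 and 18.6 CPM at 150 nM. The groups did not overlap in either line. The log2 changes of -2.19 ± 0.10 and 1.01 ± 0.11 differed by -3.19 ± 0.15 (adjusted p = 5.14e-15). AHR, the receptor itself, went from 29.7, 29.2 and 31.9 CPM to 36.5, 35.9 and 33.4 CPM in OCI-Ly1, a call lost in 6 of 23 alternatives, and from 473, 431 and 417 CPM to 327, 285 and 241 CPM in TMD8. Its targets AHRR and TIPARP rose in both lines with no called difference, AHRR by 0.31 and 0.36. The CYP1A1 promoter is printed for the gene's reversal, at chr15:74725529-74725778 on the minus strand, with GCGTG, the core of the dioxin response element, in capitals 57 bases before the start. These letters stood in 32.2% of all promoters on either strand.
CYP1A1: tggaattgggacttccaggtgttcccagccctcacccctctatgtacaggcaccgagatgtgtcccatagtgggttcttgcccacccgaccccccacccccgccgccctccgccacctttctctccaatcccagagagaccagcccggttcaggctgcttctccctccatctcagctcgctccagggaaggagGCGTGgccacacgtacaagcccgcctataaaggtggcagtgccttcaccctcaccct

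PRX, a periaxin scaffold protein, was at 88.2, 91.6 and 77.4 CPM in OCI-Ly1 DMSO and at 19.3, 22.0 and 19.8 CPM at 500 nM. In TMD8 PRX was at 1.34, 0.877 and 1.21 CPM with DMSO and at 1.60, 2.90 and 2.82 CPM at 150 nM. The changes of -2.07 ± 0.09 and 1.13 ± 0.25 differed by -3.20 ± 0.27 (adjusted p = 6.37e-10), and the TMD8 level was low throughout. CEACAM1, a cell adhesion molecule, went from 14.3, 14.2 and 13.7 CPM to 7.64, 6.95 and 6.72 CPM in OCI-Ly1 and from 9.06, 8.89 and 8.91 CPM to 18.1, 23.1 and 23.7 CPM in TMD8. GNG11, a G-protein gamma subunit, changed by -1.13 and 1.03. HLA-DMA and HLA-DMB, which load peptides onto MHC class II, fell by 1.25 and 0.70 in OCI-Ly1 and rose by 0.55 and 0.42 in TMD8. CIITA, the class II master regulator, rose in both lines, by 0.28 and 0.69. Of 13 MHC class II genes only 7 were measured in both lines. HLA-DRA, a class II chain, was at 6, 4 and 3 counts in OCI-Ly1 DMSO and between 491 and 615 CPM in the 6 TMD8 libraries. OAS3, an interferon-induced sensor of double-stranded RNA, changed by -0.63 and 0.76, whereas IRF7, another interferon gene, rose by 1.93 and 0.33.

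Of 24 heat shock genes, 17 fell and 5 rose in OCI-Ly1 (26.0% and 28.2% of all tested genes) and 14 fell and 4 rose in TMD8 (21.3% and 15.8%). In OCI-Ly1 11 fell on log2(TPM + 1) and 12 with library sizes alone. The difference was lower in OCI-Ly1 for 8 and higher for 3 (14.6% and 21.3% of all tested genes), and this turned to 3 and 7 on log2(TPM + 1). Of the 7 inducible HSP70 and HSP40 genes among them, 2 rose and 3 fell in OCI-Ly1 and 4 rose and 1 fell in TMD8. HSPA8, the constitutive HSP70, fell from 2585, 2675 and 2654 CPM to 1145, 1094 and 1119 CPM in OCI-Ly1 and from 2229, 1914 and 1961 CPM to 1336, 1220 and 1071 CPM in TMD8. HSPA1A, an inducible HSP70, rose in TMD8 from 1.34, 2.92 and 2.99 CPM to 12.8, 17.5 and 29.2 CPM, with the libraries unequal but all above DMSO. In OCI-Ly1 HSPA1A was at 3.87, 9.18 and 3.68 CPM with DMSO and at 4.12, 2.79 and 2.41 CPM at 500 nM, where the groups overlapped. The TMD8 change was 3.04 ± 0.31 (adjusted p = 1.8e-08) and the difference -3.78 ± 0.45 (adjusted p = 2.67e-07). The OCI-Ly1 change of -0.74 (adjusted p = 0.0428) was lost in 7 of 23 alternatives and was -0.26 (adjusted p = 0.474) without OCI-Ly1 DMSO replicate 2. HSPA1A shares reads with the near-identical HSPA1B. HSPA6, another inducible HSP70, had 4, 3 and 2 counts in OCI-Ly1 DMSO and 70, 37 and 38 at 500 nM, and rose from 1.74, 0.994 and 1.36 CPM to 8.91, 19.2 and 26.6 CPM in TMD8. HSPB1, a small heat shock protein, changed by 0.35 in OCI-Ly1 and -0.53 in TMD8. The HSPA1A promoter, printed for the rise in TMD8, lies at chr6:31815293-31815542 on the plus strand. Capitals mark the heat shock element core, searched as TTCNNGAA or GAANNTTC, which lay 106 bases before the start here, in 5 of 5 named heat shock genes and in 11.6% of all promoters.
HSPA1A: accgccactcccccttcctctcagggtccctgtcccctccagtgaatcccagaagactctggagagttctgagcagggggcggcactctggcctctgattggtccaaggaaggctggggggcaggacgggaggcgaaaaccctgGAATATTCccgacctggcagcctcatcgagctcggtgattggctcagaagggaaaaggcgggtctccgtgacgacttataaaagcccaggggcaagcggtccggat

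JmjC demethylase genes are the family that JIB-04 inhibits. Of 22 members, 15 rose and 2 fell in OCI-Ly1 and 7 rose and 2 fell in TMD8, with the difference higher in OCI-Ly1 for 9 and lower for none. Over all tested genes, 28.2% rose and 26.0% fell in OCI-Ly1, 15.8% rose and 21.3% fell in TMD8, and the difference was higher for 21.3% and lower for 14.6%. On log2(TPM + 1) the TMD8 balance turned to 2 rising and 6 falling, and 18 differences were higher in OCI-Ly1. KDM6B, a demethylase of histone H3 lysine 27, was at 8.09, 8.11 and 7.16 CPM in OCI-Ly1 DMSO and at 27.8, 27.8 and 26.2 CPM at 500 nM. In TMD8 KDM6B was at 57.3, 57.6 and 58.0 CPM with DMSO and at 84.0, 95.7 and 109 CPM at 150 nM. KDM6B rose without overlap in both, by 1.81 and 0.74, a difference of 1.07 ± 0.12 (adjusted p = 6.9e-08). KDM5B, which acts on lysine 4, rose by 1.5 in OCI-Ly1 only. Of 26 genes of H3K9 methylation and heterochromatin, 11 fell and 3 rose in OCI-Ly1 and 15 fell and 1 rose in TMD8, where 26.0% and 28.2% of all tested genes did so in OCI-Ly1 and 21.3% and 15.8% in TMD8. The OCI-Ly1 direction was not stable, with 4 falling and 4 rising on log2(TPM + 1) and 6 of each with library sizes alone. LBR, the lamin B receptor, fell by 0.45 and 0.70, and CBX3, a heterochromatin protein 1 gene, by 0.36 and 0.53. DNMT3A, a DNA methyltransferase, rose in OCI-Ly1 only, from 10.7, 11.5 and 12.5 CPM to 20, 22.5 and 20.5 CPM.

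Other lists held individual genes with different responses. VEGFA, a hypoxia-induced growth factor, rose by 2.90 in OCI-Ly1 and 0.53 in TMD8, and SLC2A3, a glucose transporter, changed by -0.51 and 0.83. FTH1, the ferritin heavy chain that stores iron, rose by 0.82 in OCI-Ly1 only, and the transferrin receptor gene TFRC rose by 0.53 and 0.35 with no called difference. MAFG, a partner of the antioxidant factor NRF2, rose by 0.81 in TMD8 only, while the antioxidant enzyme PRDX1 fell by 0.76 and 0.47. HRK, a BH3-only death gene, rose more in TMD8, by 2.09 against 0.89, a difference of -1.20 ± 0.19 (adjusted p = 2.08e-05). BMF, another death gene of the BCL2 family, rose by 0.51 and 0.48 with no called difference. Of 7 death genes of that family measured in both lines, 4 rose and 2 fell in OCI-Ly1. In TMD8 2 rose and 2 fell. Over all tested genes, 28.2% rose and 26.0% fell in OCI-Ly1, and 15.8% rose and 21.3% fell in TMD8. BID, also of that family, fell in both lines. Across alternatives its log2 change ran from -0.95 to -0.72 in TMD8 and from -0.29 to -0.06 in OCI-Ly1. The OCI-Ly1 call of BID was lost in 9 of 23 alternatives. Among B-cell receptor genes, SYK fell by 0.34 and 0.42 and BTK by 0.66 and 0.29, and BLK was opposite, at 0.22 and -0.54.

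**Figure D5:**
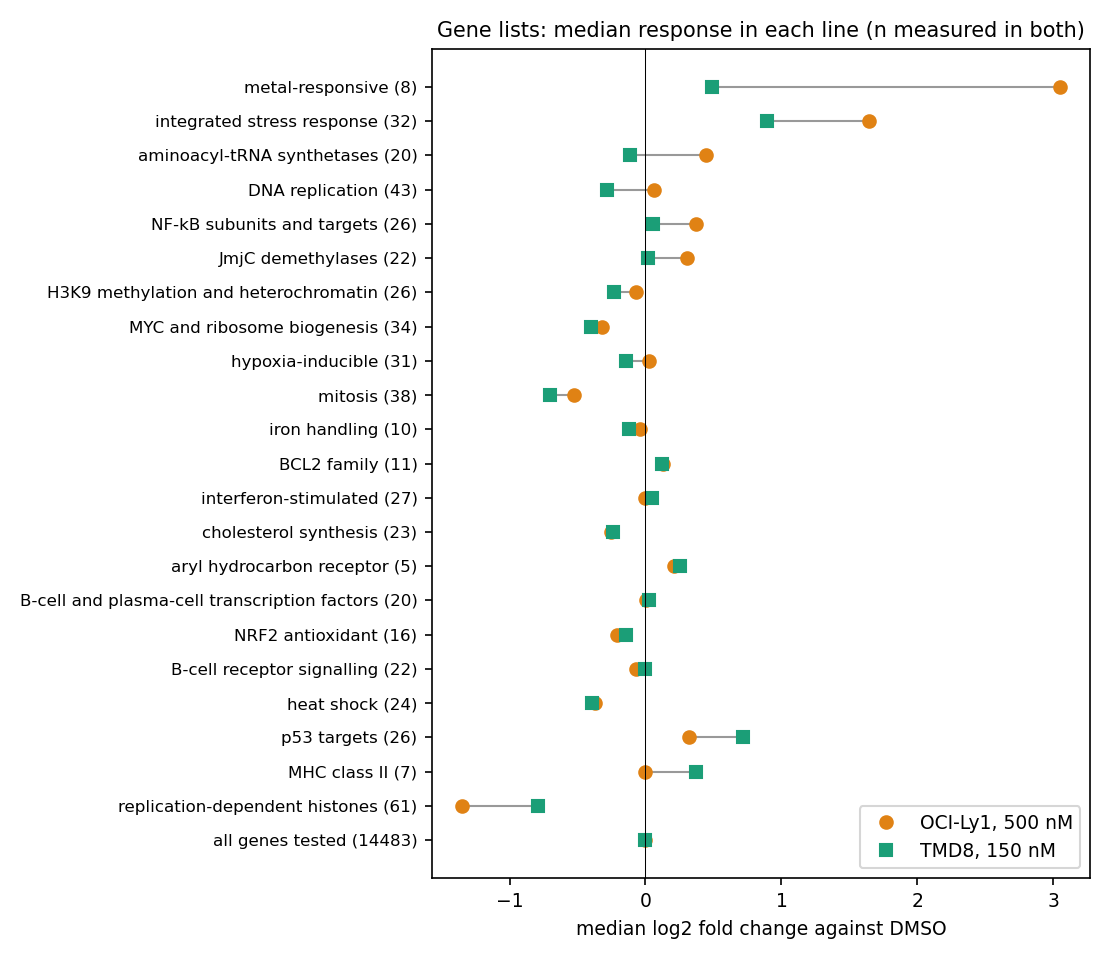
Median log2 fold change against DMSO (x axis) over the members of each gene list measured in both lines (number in brackets), in OCI-Ly1 at 500 nM (orange circles) and TMD8 at 150 nM (green squares); the bottom line gives all 14483 genes, near 0 in both. Metal-responsive, integrated stress response and tRNA synthetase genes lie further right in OCI-Ly1, p53 targets lie further right in TMD8 (their median difference of -0.31 turns to 0.06 on log2(TPM + 1)), and histone genes lie further left in OCI-Ly1.

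Some genes were measured in 1 line alone. In OCI-Ly1, 1040 genes were so, with 246 rising and 195 falling, and in TMD8 880 genes, with 212 rising and 59 falling. The shares of all tested genes were 28.2% rising and 26.0% falling in OCI-Ly1, and 15.8% and 21.3% in TMD8. ESRP1, an epithelial splicing regulator, had 7, 3 and 0 counts in OCI-Ly1 DMSO and 1723, 1203 and 1365 at 500 nM, with at most 2 counts in any TMD8 library. SPNS3, a member of a lipid transporter family, had 23, 27 and 38 counts and then 1746, 1214 and 1377, with at most 1 in these TMD8 libraries. CAMP, the antimicrobial peptide cathelicidin, fell from 287, 207 and 261 counts to 57, 57 and 58. In TMD8, GADD45G, a relative of GADD45A, rose from 7, 13 and 20 counts to 75, 93 and 149, and TGFBI, an extracellular matrix protein, from 29, 27 and 19 to 99, 145 and 206, both with 0 counts in all 6 OCI-Ly1 libraries. MS4A6A fell from 244, 297 and 308 counts to 101, 152 and 146. The 6 genes named here held 3 counts or fewer in every DMSO and treated library compared in the other line, so no difference of responses is given for them. Counted apart from that class, 110 rises and 67 falls were called in OCI-Ly1 with TMD8 at that floor. In TMD8, 75 rises and 32 falls were called with OCI-Ly1 at that floor. These counts can also take in genes that passed the filter of the other line through its dose not compared here.

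The other dose of each line, which shares its DMSO libraries with the comparisons above, is given side by side without a test between them. The log2 change of CHAC1 was 1.75 in OCI-Ly1 at 150 nM and 5.83 in TMD8 at 500 nM, beside 4.62 and 5.13. CDC20 was at -0.19 in OCI-Ly1 at 150 nM and at -2.62 in TMD8 at 500 nM, beside -1.16 and -1.21. HSPA1A was at 6.34 in TMD8 at 500 nM and at -0.76 in OCI-Ly1 at 150 nM. ICAM1 was at 0.86 in OCI-Ly1 at 150 nM and at -0.41 in TMD8 at 500 nM, and IRF4 at 0.05 and -0.69. CYP1A1 was at -0.56 and 0.65. The adjusted p of CDC20, HSPA1A and IRF4 in OCI-Ly1 at 150 nM was 0.318, 0.346 and 0.823, so none of these 3 was called there.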

How the data were processed

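RNA-seq libraries were made from both lines. Per the submitters' processing notes, reads were quantified with kallisto 0.46.0, hg19 is named as the build, and R 4.3.1 and DESeq2 1.40.2 were used. The deposited tables hold the authors' estimated counts and TPM per gene symbol. Estimated counts were rounded and fitted with edgeR 4.0.16 (R 4.3.3) using TMM scaling, its filter on low counts by group, and the quasi-likelihood test, with all 18 libraries in 1 model of 6 groups. Benjamini-Hochberg adjustment ran over all 16604 genes. The difference was the contrast of both responses. TPM entered alternatives fitted with limma 3.58.1, and DESeq2 1.42.0 was another alternative. Levels are TMM-scaled CPM. Genes named for their class reached a mean of 5 CPM in 1 of the 4 groups, exceeded 3 counts in all 12 libraries and showed no overlap for each called response. These were the 5 largest shared rises and falls by the smaller change, 4 opposite genes per direction, and 4 line-only genes per direction by the size of the difference. Also named were 3 rises and 2 falls measured in 1 line alone and, per list, at most 3 members with a called difference and 2 shared members, which needed only a mean of 5 CPM in a group. Other genes were named after their values were seen. The members and lists were chosen with earlier results of these data known. The test of the difference was also run on simulated counts with the spreads of its own fit. In these, both lines were given the mean of their responses, and known differences were added to some genes. This cannot speak to the kind of replicate used. The 250 bases before each start in RefSeq promoters (GRCh38.p14) were matched by symbol, with no coordinates taken from hg19. Some named results are not reported here.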

Additional observations from a re-analysis of the deposited data

Results flagged for a closer look

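The responses of the lines differed in the test of the difference itself (edgeR, adjusted p under 0.05) and the difference was at least 1 on the log2 scale, for 53 of the named genes with a mean of at least 5 CPM in a group and more than 3 counts in every library, and each value here is the OCI-Ly1 log2 change minus the TMD8 log2 change. ATF3, with a larger difference of 5.42, had a library with 3 counts and is not among them. Higher in OCI-Ly1 were BATF3 4.59, ICAM1 3.83, SERPINH1 3.13, TBC1D16 3.13, SLC43A1 3.01, DENND3 2.85, FYN 2.84, SLC30A1 2.56, VEGFA 2.37, PCK2 2.36 and PPP1R15A 2.32. Further differences on that side were MT1X 2.23, CDKN1A 1.98, SMN1 1.96, C7orf55-LUC7L2 1.92, RASGEF1A 1.79, SREBF1 1.61, IRF7 1.60, NFKBIA 1.53, WARS 1.5 and PEMT 1.45. Others on that side were SCLY 1.31, KDM5B 1.30, XBP1 1.28, TARS 1.28, MT2A 1.27, IRF4 1.25, CARS 1.25, KDM6B 1.07, IFIT2 1.06 and FAS 1.04. Lower in OCI-Ly1 were HSPA1A -3.78, PRX -3.20, CYP1A1 -3.19, KLF15 -2.78, TBC1D3 -2.49, FCRL2 -2.40, PGF -2.32, RPS6KA6 -2.29, PNMAL1 -2.27, CEACAM1 -2.26, GNG11 -2.16 and GADD45A -2.10. Further differences on the lower side were AQP3 -2.02, HIST4H4 -1.86, HLA-DMA -1.79, TP53I3 -1.53, OAS3 -1.39, HIST1H4I -1.36, SLC2A3 -1.34, HIST1H4D -1.22, HRK -1.20 and HLA-DMB -1.12. KLF15, RPS6KA6 and HSPA1A each had 1 high library, OCI-Ly1 DMSO replicate 2, and the KLF15 difference without it was -0.52 (adjusted p = 0.711). SMN1, C7orf55-LUC7L2, TBC1D3, HSPA1A and the histone and metallothionein genes share sequence with other genes. The line, the medium and the dose cannot be told apart in any of these differences.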

How the results depend on the processing

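Of 359 results for single genes, 281 kept their side of the threshold under all 23 alternatives that gave a value. Those of them that were called also kept their direction. A call was lost in at least 1 alternative for 61, and 6 called results changed sign in at least 1. Signs of results not called at the outset were not followed. The difference of CHAC1 ran from -0.83 to 1.66 and that of CDC20 from -0.07 to 0.34. The difference of PRDX1 turned to 4e-04 on log2(TPM + 0.1). The differences on log2(TPM + 1) and log2(TPM + 0.1) turned to 0.0325 and 0.0358 for TKT, to 0.0439 and 0.0454 for LDHA, and to 0.0077 and 0.0068 for FDFT1. The difference of NDRG1 turned to -0.064 on log2(TPM + 1) and to -0.3738 on centred values, and that of IFIT2 to -0.0333 on centred values.

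Shared genes numbered 1586 on log2(TPM + 1) and 1601 on log2(TPM + 0.1), and TMD8-only genes 1988 and 2038. At an adjusted p under 0.01 there were 3880 called differences and 357 opposite genes. With a log2 change of at least 0.5, calls numbered 4397 in OCI-Ly1, 1884 in TMD8 and 3392 for the difference, with 746 shared, 87 opposite, 1756 OCI-Ly1-only and 335 TMD8-only genes. With no test of the difference in the class rule, 4485 genes were OCI-Ly1-only and 1991 TMD8-only. Of called genes on log2(TPM + 0.1), 72.5% rose in OCI-Ly1, 20.4% rose in TMD8 and 87.7% of differences were higher in OCI-Ly1. The cause of these shifts was not tested.

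Leaving out each replicate in turn gave 8100 to 9279 calls in OCI-Ly1, 4497 to 6279 in TMD8 and 4948 to 5811 for the difference. It gave 2488 to 2988 shared, 488 to 785 opposite, 2411 to 2777 OCI-Ly1-only and 723 to 1238 TMD8-only genes, with the lowest opposite and TMD8-only counts without TMD8 150 nM replicate 3.

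Libraries with the same replicate number did not deviate together in OCI-Ly1, with correlations of -0.045 to -0.00445 between the groups. In TMD8 the correlations were 0.0928, -0.0333 and 0.0916 for numbers 1, 2 and 3, and -0.132 to 0.071 for unlike numbers. All were weak, and the numbers were not taken to pair the libraries. With the replicate number as a block, calls numbered 9157, 6332 and 6228, with 3171 shared, 862 opposite, 2762 OCI-Ly1-only and 1219 TMD8-only genes, and no count moved by over 1.5 times. Not every library correlated best with its own number. Estimated counts of 3 or fewer in all libraries of a group affected 63 genes measured in both lines. No fold of a single gene is given in the line with such a group. The NDRG1 differences given above on log2(TPM + 1) and on centred values rest on such a group, OCI-Ly1 DMSO.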
